A study of Mus musculus with 20 samples.

Results

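Bile acid synthesis and transport was followed in liver RNA through 10 genes: Cyp7a1, Cyp8b1, Cyp27a1, Cyp7b1, Baat, Slc10a1, Slco1b2, Slco1a1, Abcb11 and Nr0b2. They were chosen by gene symbol for their known role, each matched 1 identifier among the 48440 genes of the count table, and all 10 were among the 16071 genes with enough counts to be tested. The livers came from 20 wild-type female mice, C57BL/6 by the labels and C57BL/6J in the study's methods, 8 weeks old by the labels, in 4 groups of 5. Corticosterone (CORT), the main glucocorticoid of rodents, was given for 5 weeks to model Cushing syndrome, and vehicle was given to the others. All mice also received intraperitoneal antibody: either a monoclonal antibody against the acyl-CoA-binding protein ACBP, also called DBI (αACBP), or an IgG2a isotype control, so that no group was free of injected antibody. With the isotype the groups are called Isotype + Vehicle and Isotype + CORT, and with the antibody αACBP + Vehicle and αACBP + CORT, and each liver is of 1 mouse.

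Hepatocytes turn cholesterol into bile acids by a classical pathway that begins with CYP7A1 and by an alternative pathway that begins with CYP27A1. Bile acids are then joined to taurine or glycine, pumped into bile, reabsorbed in the gut and taken up again by hepatocytes from portal blood. Their return activates the nuclear receptor FXR, which induces the repressor SHP, encoded by Nr0b2, and SHP in turn lowers transcription of Cyp7a1 and Cyp8b1. In mouse liver the pathway also follows the time of day, since clock proteins and feeding act on several of these genes.

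Of the 10 genes, 4 had an adjusted p of 0.05 or less in some comparison, and the other 6 had it in none. By that rule 3.2% of all genes passed with CORT under isotype and 5.14% with αACBP under vehicle. Of the 4, only Nr0b2 and Cyp7b1 also had a log2 fold change of 1 or more in size. Under isotype, CORT raised Slco1b2, a bile acid uptake carrier, from a mean of 628 to 1159 CPM (counts scaled to a common library size) and lowered Cyp27a1 from 769 to 448 CPM. Under vehicle, Nr0b2 was lower with αACBP (41.9 against 93.7 CPM), as was Cyp7b1, an enzyme of the alternative pathway (7.30 against 15.5 CPM). Clock genes differed between these same groups, and the antibody and the clock state cannot be told apart there. With an index of clock genes as a covariate neither was called (adjusted p = 0.949 for both). Each call was also lost with some single livers left out. The rate-limiting enzyme Cyp7a1 varied widely between mice and passed in no comparison. CPM were scaled with TMM factors (edgeR's trimmed mean of M values), log2 fold changes come from 1 model of all 20 livers, and p-values are from edgeR's quasi-likelihood test, adjusted over all 16071 genes by the Benjamini-Hochberg method. A gene is termed called if its adjusted p is at most 0.05 and its log2 fold change is 1 or more in size. Counts by unadjusted p, DESeq2 or voom are given without the share of all genes under the same rule. They are not read as an excess over other genes. All groups are whole liver, in which fewer cells of a type and less RNA per cell cannot be told apart.

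The deposited counts on genes came to 14934926 to 20299999 per liver, and 3 counts, the limit set for detection, were 0.201 CPM at the lowest total, for counting error only. Counts on genes were 36.6% to 40.4% of all deposited counts per liver, which include those assigned to no gene. Hepatocyte markers (Alb, Ttr, Apob, Apoa1, Cps1 and Serpina1a) summed to medians of 107678 CPM in Isotype + Vehicle, 114911 CPM in Isotype + CORT, 83067 CPM in αACBP + Vehicle and 92409 CPM in αACBP + CORT. Alb made up most of these sums. Clock genes stood apart by group and by single livers. An index of them, the mean z score of genes that peak with Dbp minus that of genes that peak with Bmal1 (named Arntl in the table), lay between -1.74 and -0.53 in Isotype + Vehicle and between 0.71 and 2.75 in αACBP + Vehicle. In Isotype + CORT it was -0.64 to 0.15 in 4 livers and 1.67 in replicate 5, and in αACBP + CORT -2.13 to -1.12 in 4 livers and 1.30 in replicate 5. Under vehicle, αACBP livers had more Dbp (log2 fold change 4.31, adjusted p = 0.0287) and less Arntl (log2 fold change -2.11, adjusted p = 0.0108). Of the 14 clock genes, Ciart (3.24, adjusted p = 0.00368), Tef (2.11, adjusted p = 0.00859) and Nfil3 (-1.14, adjusted p = 0.00788) were also called there. The share of all genes called in that comparison was 1.3%. Hlf was called with CORT under isotype (1.21, adjusted p = 0.00098), against 1.94% of all genes. Nfil3 was called with CORT under αACBP (1.45, adjusted p = 0.0101), against 0.212% of all genes. It was also called in the interaction of both treatments (1.80, adjusted p = 0.0162), against 0.143% of all genes. The labels give no hour of collection.

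Scaled by the merged length of all exons of each gene in GENCODE M39, the 10 genes spanned a wide range of levels. Of the identifiers counted, 91.41% were found in that release, but only 0.072% with the same version. The exons counted may thus differ from those used for lengths and overlaps. Over the 20 livers, mean levels per kilobase of exon were 189 CPM for Cyp27a1, 182 CPM for Abcb11, 128 CPM for Slco1b2, 116 CPM for Baat and 84.2 CPM for Slc10a1. Cyp8b1 at 46.9, Nr0b2 at 29.9 and Cyp7a1 at 11.1 CPM per kilobase followed. Slco1a1 at 5.11 and Cyp7b1 at 0.99 CPM per kilobase were lowest. SDs over all livers were 46.2 for Cyp27a1, 34.2 for Abcb11 and 37.0 for Slco1b2 on this scale, so that the order of the top pair is within the spread between livers.

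**Figure D1:**
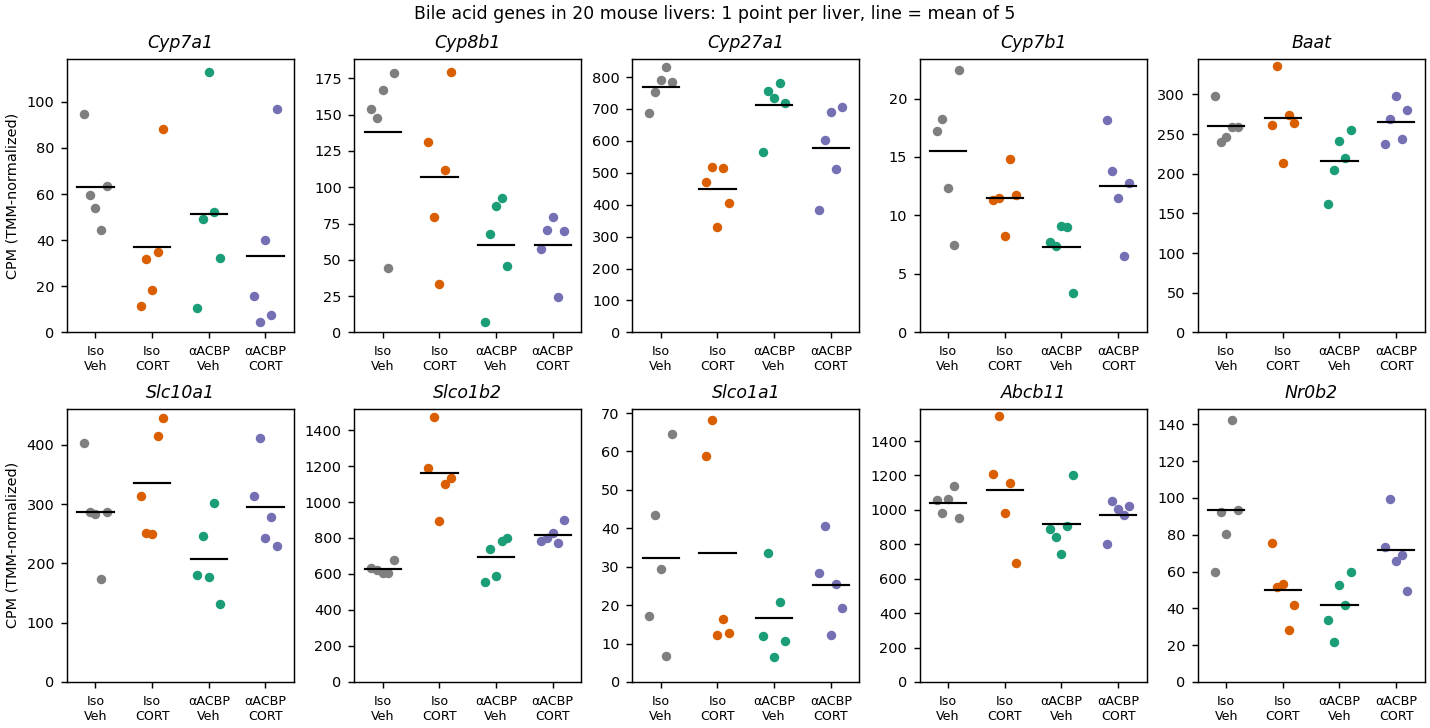
TMM-normalized CPM (linear axis from 0) of the 10 genes, 1 panel per gene, with 1 point per liver and a line at the mean of 5 livers for each group. Slco1b2 in Isotype + CORT (896 to 1473 CPM) sits above every Isotype + Vehicle liver (604 to 676 CPM), and Cyp27a1 (330 to 518 CPM) sits below them (688 to 831 CPM).

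Cyp7a1 encodes cholesterol 7α-hydroxylase, the rate-limiting enzyme of the classical pathway, and lies on the minus strand at chr4:6265612-6275633 (GRCm39, 6 exons). Its level was 44.2, 53.9, 59.6, 63.3 and 94.9 CPM in the Isotype + Vehicle livers and 11.6, 18.6, 32, 35 and 88.2 CPM in the Isotype + CORT livers. With αACBP it was 10.8, 32.1, 49.1, 52.3 and 113 CPM under vehicle and 4.51, 7.33, 16, 40.1 and 96.7 CPM under CORT. Each treated group had 1 liver near or above the highest control, and all groups overlapped. The highest liver was 21.5 times the lowest within αACBP + CORT and 2.15 times within Isotype + Vehicle. CORT gave a log2 fold change of -0.77 under isotype (SE 0.75, 95% interval -2.36 to 0.82, adjusted p = 0.733) and of -0.64 under αACBP (SE 0.75, adjusted p = 0.799). The interval under isotype holds falls of over 2 log2 units and rises, so a change of that size could not be told from none. In both CORT groups the liver with the highest Cyp7a1 was replicate 5, the same liver whose clock index stood apart. Without that liver the log2 fold change with CORT was -1.38 under isotype (adjusted p = 0.447) and -1.60 under αACBP (adjusted p = 0.313). In αACBP + Vehicle the highest was replicate 3, with the highest index of all (2.75), while in Isotype + Vehicle it was replicate 1, with the lowest index of that group (-1.74). With the clock index as a covariate, CORT gave -1.71 under isotype and 0.80 under αACBP (SE 0.82), and αACBP under vehicle gave -2.29. None of these passed, and the part of the clock genes in the spread of Cyp7a1 was not tested further.

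Cyp8b1 encodes sterol 12α-hydroxylase, which directs the classical pathway towards cholic acid, and is a gene of 1 exon on the minus strand at chr9:121743422-121745371. Isotype + Vehicle livers held 44.3, 148, 154, 167 and 178 CPM, and Isotype + CORT livers 33.5, 79.4, 112, 131 and 180 CPM. Under αACBP the values were 7.43, 45.5, 67.8, 86.8 and 92.4 CPM with vehicle and 24.4, 57.8, 69.9, 70.8 and 79.4 CPM with CORT. In both αACBP groups all livers were below 4 of the 5 Isotype + Vehicle livers, but 1 control liver at 44.3 CPM lay among them. The log2 fold change with αACBP was -1.21 under vehicle (SE 0.56, unadjusted p = 0.0450, adjusted p = 0.230) and -0.83 under CORT (SE 0.55, adjusted p = 0.626). αACBP + CORT against Isotype + Vehicle gave -1.19 (SE 0.56, unadjusted p = 0.0468, adjusted p = 0.645). CORT under isotype gave -0.37 (SE 0.55, adjusted p = 0.849). None of these passed the adjustment over all genes.

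Cyp27a1 encodes the mitochondrial sterol 27-hydroxylase, which opens the alternative pathway and also oxidizes the side chain in the classical one, and lies on the plus strand at chr1:74752314-74777056 (9 exons). Its promoter is shown because the gene fell with CORT. The 300 bases from RefSeq (table of GRCm38.p6, found once and unaltered in GRCm39 at chr1:74752444-74752743, plus strand) hold none of 4 motifs searched on both strands. These were CACGTG, the E-box bound by CLOCK and BMAL1, AGGTCA, the core of nuclear receptor sites, TCAAGG, the core of LRH-1 sites, and TGTTCT, the core of glucocorticoid receptor sites. They were chosen after the values were seen, and TCAAGG and AGGTCA can overlap.
Cyp27a1: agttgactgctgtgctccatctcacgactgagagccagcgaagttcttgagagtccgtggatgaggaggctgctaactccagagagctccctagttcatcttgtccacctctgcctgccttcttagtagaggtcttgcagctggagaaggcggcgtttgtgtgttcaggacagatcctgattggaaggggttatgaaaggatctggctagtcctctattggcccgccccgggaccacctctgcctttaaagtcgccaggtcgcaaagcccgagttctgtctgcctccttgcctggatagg
In Isotype + Vehicle, Cyp27a1 was at 688, 753, 783, 791 and 831 CPM, and in Isotype + CORT at 330, 404, 470, 516 and 518 CPM. The αACBP + Vehicle livers had 564, 719, 735, 756 and 782 CPM and the αACBP + CORT livers 382, 512, 604, 691 and 705 CPM. Every CORT liver under isotype was below every vehicle liver, whereas under αACBP the CORT and vehicle livers overlapped. CORT lowered Cyp27a1 under isotype, with a log2 fold change of -0.78 (SE 0.17, 95% interval -1.14 to -0.42, adjusted p = 0.0103), which is short of the fold limit. It passed by adjusted p with any 1 liver left out (at most 0.0268) and in every other alternative run (at most 0.0194). Under αACBP the same contrast was -0.30 (SE 0.17, adjusted p = 0.498), and the difference between both effects, 0.48, did not pass either (SE 0.24, 95% interval -0.02 to 0.99, adjusted p = 0.501). Antibody against isotype under CORT gave 0.37 (SE 0.17, adjusted p = 0.372). Exons of Prkag3 on the opposite strand cover 32.8% of the exon bases of Cyp27a1, but Prkag3 itself received 0 to 22 counts per liver, at most 0.277% of the Cyp27a1 count. Kupffer cell markers moved in the same comparison, with a median sum of 429 CPM in Isotype + Vehicle and 166 CPM in Isotype + CORT, and their part in the Cyp27a1 change was not tested.

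Cyp7b1 encodes oxysterol 7α-hydroxylase, the second hydroxylase of the alternative pathway, and lies on the minus strand at chr3:18117411-18297740 (6 exons). It was the lowest of the 10 genes, with 7.45, 12.4, 17.2, 18.2 and 22.4 CPM in Isotype + Vehicle and 8.23, 11.3, 11.5, 11.7 and 14.8 CPM in Isotype + CORT. With αACBP it was at 3.33, 7.39, 7.71, 8.97 and 9.11 CPM under vehicle and at 6.51, 11.5, 12.8, 13.8 and 18.1 CPM under CORT. Under vehicle, 4 of 5 isotype livers were above all αACBP livers, and 1 at 7.45 CPM lay among them. αACBP lowered Cyp7b1 under vehicle by a log2 fold change of -1.09 (SE 0.30, 95% interval -1.71 to -0.47, adjusted p = 0.0332). With the replicate numbers as a block the adjusted p was 0.0698, and leaving out single livers it lay between 0.0126 and 0.122. It was above 0.05 without replicates 1, 2 or 5 of either vehicle group. With the clock index as a covariate the log2 fold change was -0.84 (SE 0.46, unadjusted p = 0.0807, adjusted p = 0.949), and the index of both vehicle groups did not overlap. Under αACBP, CORT livers were higher than vehicle livers by 0.78 (SE 0.30, unadjusted p = 0.0147, adjusted p = 0.254), and the interaction of both treatments was 1.21 (SE 0.42, adjusted p = 0.242).

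Baat encodes the enzyme that joins bile acids to taurine or glycine (minus strand, chr4:49489289-49506563, 4 exons). Levels ran from 240 to 298 CPM with a median of 258 in Isotype + Vehicle and from 214 to 336 CPM with a median of 265 in Isotype + CORT. They were 161 to 255 CPM (median 220) in αACBP + Vehicle and 237 to 297 CPM (median 268) in αACBP + CORT. The groups overlapped in every comparison. CORT under isotype gave a log2 fold change of 0.05 (SE 0.15), with a 95% interval of -0.26 to 0.37 that holds no change of 1 log2 unit. The largest Baat value was 0.29 for CORT under αACBP (SE 0.15, adjusted p = 0.430).

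Slco1b2 encodes OATP1B2, which takes up unconjugated bile acids and many drugs at the sinusoidal membrane, and lies on the plus strand at chr6:141575179-141633546 (16 exons). Its promoter is shown because it had the smallest p of the 10 genes. The window (RefSeq table of GRCm38.p6, found once unaltered in GRCm39 at chr6:141574994-141575293, plus strand) holds 1 core of nuclear receptor sites, AGGTCA read on the minus strand, in capitals as TGACCT, from base -81 relative to the start site. AGGTCA is present on either strand in 16.3% of 32851 RefSeq promoters of 300 bases.
Slco1b2: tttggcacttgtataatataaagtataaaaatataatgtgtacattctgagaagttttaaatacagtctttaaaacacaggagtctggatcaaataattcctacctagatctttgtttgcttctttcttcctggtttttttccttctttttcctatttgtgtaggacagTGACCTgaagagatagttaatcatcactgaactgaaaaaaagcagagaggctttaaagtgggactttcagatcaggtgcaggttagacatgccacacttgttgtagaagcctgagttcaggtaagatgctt
Isotype + Vehicle livers lay close together at 604, 605, 622, 633 and 676 CPM, and Isotype + CORT livers at 896, 1103, 1131, 1191 and 1473 CPM. The αACBP + Vehicle livers had 557, 587, 737, 783 and 800 CPM and the αACBP + CORT livers 773, 782, 799, 826 and 902 CPM. All 5 CORT livers under isotype exceeded all 5 vehicle livers, and the αACBP + CORT livers lay between them, with 1 liver at 902 CPM above the lowest Isotype + CORT liver. CORT raised Slco1b2 under isotype, with a log2 fold change of 0.88 (SE 0.16, 95% interval 0.56 to 1.21, adjusted p = 0.00162), which is 1.84-fold. With any 1 liver left out the log2 fold change lay between 0.77 and 0.96, and the adjusted p was at most 0.00855. In the other alternatives run the adjusted p was at most 0.0096. Under αACBP, CORT gave 0.24 (SE 0.16, adjusted p = 0.568). αACBP against isotype under CORT gave -0.51 (SE 0.16, unadjusted p = 0.00313, adjusted p = 0.122). The interaction was -0.65 (SE 0.22, adjusted p = 0.233), so in this model a difference in the CORT effect with the antibody did not pass the adjustment. Over the alternatives to the test, filter, normalization and covariates, the adjusted p lay between 0.0127 and 0.241 for αACBP under CORT. For the interaction it lay between 0.0324 and 0.908. The αACBP + CORT livers still exceeded all Isotype + Vehicle livers, by a log2 fold change of 0.38 (SE 0.16, adjusted p = 0.487). The comparisons with CORT under isotype and with αACBP under CORT share the Isotype + CORT livers.

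Slc10a1 encodes NTCP, the sodium-dependent carrier that takes up most conjugated bile acids (minus strand, chr12:80996372-81015479, 4 exons), and exons of Srsf5 on the opposite strand cover 8.03% of its exon bases. Levels were 174 to 404 CPM (median 286) in Isotype + Vehicle and 250 to 445 CPM (median 314) in Isotype + CORT. With αACBP they were 132 to 302 CPM (median 180) under vehicle and 230 to 411 CPM (median 279) under CORT. The groups overlapped throughout. αACBP under vehicle gave a log2 fold change of -0.47 (SE 0.23, 95% interval -0.94 to 0.00042, adjusted p = 0.243), and CORT under αACBP gave 0.51 (SE 0.23, unadjusted p = 0.0345, adjusted p = 0.345).

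Slco1a1 encodes OATP1A1, an organic anion carrier that is lower in female than in male mouse liver (minus strand, chr6:141853007-141892690, 14 exons). Its livers fell far apart within groups, at 6.82, 17.2, 29.4, 43.6 and 64.5 CPM in Isotype + Vehicle and at 12.3, 12.6, 16.4, 59.0 and 68.1 CPM in Isotype + CORT. In αACBP + Vehicle the values were 6.46, 10.8, 11.9, 20.8 and 33.5 CPM, and in αACBP + CORT 12.2, 19.3, 25.5, 28.5 and 40.6 CPM. The Isotype + CORT livers split into 3 low and 2 high ones, and no group was free of overlap. CORT under isotype gave 0.06 on the log2 scale (SE 0.62, 95% interval -1.26 to 1.38) and αACBP under vehicle -0.95 (SE 0.63, adjusted p = 0.441), so a change of 1 log2 unit could not be told from none in these livers.

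Abcb11 encodes BSEP, the pump that exports bile acids into bile (minus strand, chr2:69068544-69173315, 28 exons). Isotype + Vehicle livers held 955 to 1137 CPM (median 1055) and Isotype + CORT livers 688 to 1545 CPM (median 1156). αACBP + Vehicle livers held 741 to 1201 CPM (median 889) and αACBP + CORT livers 801 to 1053 CPM (median 1006). The spread was widest in Isotype + CORT, whose lowest and highest livers enclosed all others. No comparison passed, with log2 fold changes of 0.10 for CORT under isotype (SE 0.18, 95% interval -0.27 to 0.47) and -0.20 for αACBP under CORT (SE 0.18, 95% interval -0.57 to 0.17). Against Isotype + Vehicle, αACBP + CORT gave -0.10 (SE 0.18, 95% interval -0.47 to 0.27).

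Nr0b2 encodes SHP, the FXR-induced repressor of bile acid synthesis, in 2 exons on the plus strand at chr4:133280678-133283847. Its promoter is shown because the gene passed the test with the antibody and carries 2 of the motifs. The window (RefSeq table of GRCm38.p6, found once unaltered in GRCm39 at chr4:133280437-133280736, plus strand) holds in capitals an E-box, CACGTG, from base -195 relative to the start site and the LRH-1 core, TCAAGG, from bases -68 and -35. CACGTG is present in 7.15% and TCAAGG in 14.4% of RefSeq promoters of this length, and TGTTCT, which none of the 3 promoters shown holds, in 19% of them. Promoters of genes that passed in no comparison were searched too. That of Abcb11 held TGTTCT from base -34 and AGGTCA, read on the minus strand, from base -56. AGGTCA was also in promoters of Slco1a1 and Slc10a1, and that of Cyp8b1 held none of the motifs.
Nr0b2: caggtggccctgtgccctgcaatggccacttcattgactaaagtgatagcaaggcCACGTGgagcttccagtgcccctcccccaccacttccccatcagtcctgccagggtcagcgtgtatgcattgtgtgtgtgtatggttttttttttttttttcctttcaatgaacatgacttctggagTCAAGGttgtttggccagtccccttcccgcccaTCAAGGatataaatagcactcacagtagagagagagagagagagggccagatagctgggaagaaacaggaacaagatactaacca
Its level was 59.6, 80.4, 92.3, 93.7 and 143 CPM in Isotype + Vehicle livers and 28.2, 41.8, 51.8, 53.3 and 75.6 CPM in Isotype + CORT livers. With αACBP the values were 22, 33.5, 41.7, 52.9 and 59.7 CPM under vehicle and 49.6, 65.7, 69.1, 73.5 and 99.5 CPM under CORT. The αACBP + Vehicle livers were all at or below the lowest Isotype + Vehicle liver save for 1 that exceeded it by less than 1 CPM. αACBP lowered Nr0b2 under vehicle by a log2 fold change of -1.16 (SE 0.27, 95% interval -1.71 to -0.61, adjusted p = 0.0159). CORT under isotype gave -0.90 (SE 0.26, unadjusted p = 0.00219, adjusted p = 0.0603), and CORT under αACBP had the opposite sign, 0.77 (SE 0.26, unadjusted p = 0.00744, adjusted p = 0.204). The interaction was 1.67 (SE 0.37, 95% interval 0.90 to 2.44) and missed the threshold narrowly (adjusted p = 0.0525). It passed with DESeq2's Wald test (1.64, adjusted p = 0.00563), with limma voom with quality weights (1.87, adjusted p = 0.012) and with a filter of 10 counts in every liver (1.64, adjusted p = 0.0496). Over the alternatives to the test, filter, normalization and covariates, its adjusted p lay between 0.00563 and 0.909, the highest with the clock index as a covariate, where the interaction was 1.35 (SE 0.60). Without αACBP + CORT replicate 5, the liver of that group whose clock index stood apart, the interaction was 1.78 (adjusted p = 0.0283).

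The Nr0b2 call under vehicle came with the shift of the clock genes. With the clock index as a covariate its log2 fold change was -0.93 (SE 0.43, unadjusted p = 0.0392, adjusted p = 0.949). The index of both vehicle groups did not overlap, and in that fit no gene at all was called in this comparison. The sum of 7 cholangiocyte markers had a ratio of means of 0.579 for αACBP against isotype under vehicle (two-sided exact permutation test, p = 0.0238, adjusted p = 0.143 over 24 tests). Most of that sum was Spp1, with means of 66.1 of 82.4 CPM under isotype and 38.1 of 47.7 CPM under αACBP. By fitted fold change, 6 of the 7 markers were lower and 1 was higher. Hepatocyte markers had a ratio of 0.726 there (exact permutation test, p = 0.0635, adjusted p = 0.218). Most of their sum was Alb, with means of 74541 of 100939 CPM under isotype and 50885.5 of 73321.4 CPM under αACBP. Without αACBP + Vehicle replicate 1 the adjusted p of Nr0b2 was 0.0531 (log2 fold change -1.09), and without Isotype + Vehicle replicate 4, its highest liver, the log2 fold change was -0.96 (adjusted p = 0.0274). The part of clock genes and of cell types in these changes was not tested, and the antibody and the clock state cannot be told apart under vehicle.

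**Figure D2:**
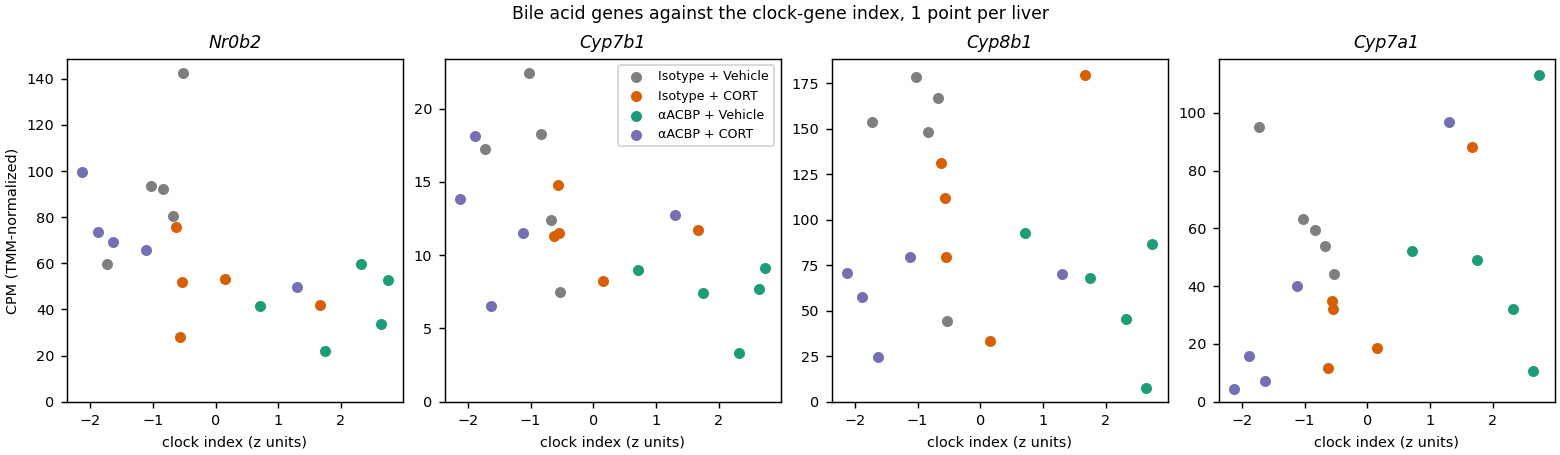
CPM of Nr0b2, Cyp7b1, Cyp8b1 and Cyp7a1 (linear axis from 0) against the clock-gene index (z units), 1 point per liver, coloured by group. The αACBP + Vehicle livers lie at an index of 0.71 to 2.75, to the right of all Isotype + Vehicle livers (-1.74 to -0.53), and replicate 5 of each CORT group (1.67 and 1.30) lies apart from the other 4.

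Counted over the 10 genes, the comparisons read as follows. Under isotype, CORT gave 0 called genes, against 1.94% of all genes, by edgeR as by DESeq2 and voom. It gave 2 genes by adjusted p alone (Slco1b2 and Cyp27a1), against 3.2% of all genes, and 3 at an unadjusted p of 0.05 or less (these and Nr0b2). Slco1b2 and Cyp27a1 were also the 2 whose groups did not overlap, and the share of all genes without overlap was not counted. The median log2 fold change was -0.16, and 5 genes were higher and 5 lower, while the median of all genes was 0.00221. αACBP under vehicle gave 2 called genes (Nr0b2 and Cyp7b1), against 1.3% of all genes, and the same 2 by adjusted p alone, against 5.14%. Here 9 of 10 genes were lower, with a median log2 fold change of -0.38, against -0.02 for all genes, and Slco1b2 was the exception at 0.14. Hepatocyte markers were mostly lower too, with 5 of 6 lower at a median of -0.46, and the clock index of both groups did not overlap. Their part in the count was not tested.

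No gene of the 10 passed in the other comparisons in the main edgeR model, with or without the fold limit. Besides Nr0b2 in the interaction, some passed by adjusted p alone in some of the alternative runs. The lowest adjusted p was 0.0127 for Slco1b2 with αACBP under CORT and 0.0324 for Slco1b2 in the interaction. It was 0.0363 for Nr0b2 with CORT under αACBP and 0.0237 for Cyp27a1 in αACBP + CORT against Isotype + Vehicle. In each case the highest was above 0.05. For αACBP under CORT the shares of all genes were 0.597% called and 0.958% by adjusted p alone, and 2 of the 10 had an unadjusted p of 0.05 or less. DESeq2 and voom also called 0 of the 10 there. CORT under αACBP called 0.212% of all genes and 0.305% by adjusted p alone, with 3 of the 10 at that unadjusted p and 0 called by DESeq2 or voom. For αACBP + CORT against Isotype + Vehicle the shares were 0.0684% and 0.0809%, with 3 of the 10 at that unadjusted p (Slco1b2, Cyp27a1 and Cyp8b1) and 0 by DESeq2 or voom. The interaction called 0.143% of all genes under either rule, 3 of the 10 had an unadjusted p of 0.05 or less (Nr0b2, Slco1b2 and Cyp7b1), and DESeq2 and voom each called 1, Nr0b2. An F test over the 4 groups, from the same model, passed for Slco1b2 (adjusted p = 0.00164), Cyp27a1 (adjusted p = 0.0133) and Nr0b2 (adjusted p = 0.0153), and next was Cyp7b1 (adjusted p = 0.0760).

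**Figure D3:**
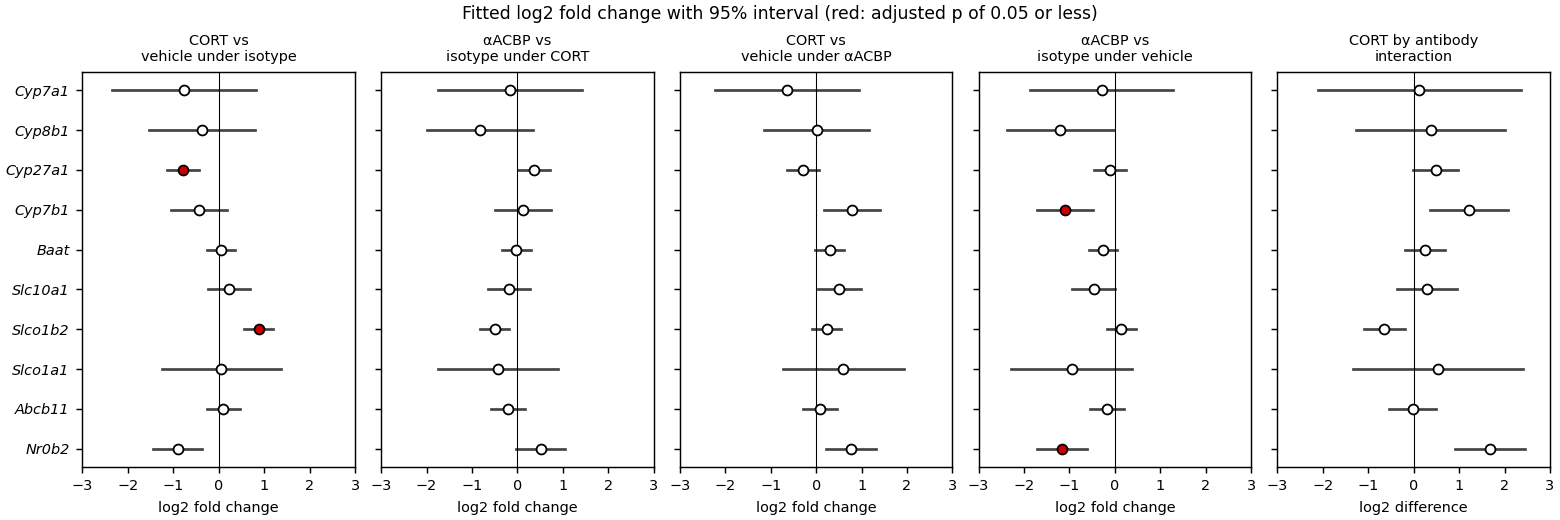
Fitted log2 fold changes of the 10 genes with 95% intervals in 5 comparisons, 1 panel each, red where the adjusted p was 0.05 or less. Red points are Slco1b2 (0.88) and Cyp27a1 (-0.78) for CORT under isotype and Nr0b2 (-1.16) and Cyp7b1 (-1.09) for αACBP under vehicle, and the intervals of Cyp7a1, Cyp8b1 and Slco1a1 are the widest.

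Across the 20 livers the genes of the pathway did not move as 1 block. Described by Pearson's r of log2 CPM, which includes the group differences, the closest pair was Cyp7b1 and Slc10a1 (r = 0.68, and r = 0.61 for deviations from group means). Baat and Slco1b2 had r = 0.51 over all livers and r = 0.71 within groups. Slco1b2 and Cyp27a1 went opposite ways over all livers (r = -0.56) and the same way within groups (r = 0.59). Cyp7a1 and Cyp8b1 had r = 0.56 and 0.57. Nr0b2 and its target Cyp7a1 had r = -0.16 over all livers and -0.39 within groups. All these values come from the same libraries and share their depth and clock state.

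Among 11987 genes with a mean of 1 CPM or more, genes like the 3 members with the smallest F test p were sought by Pearson's r of log2 CPM over the 20 livers. For Slco1b2 those with high values included Dnajc21 (r = 0.82) and Bnip3 (r = 0.81), with r = 0.50 and 0.27 within groups. Cyp27a1 was followed by Mmd2 (r = 0.87), Abhd14a (r = 0.87) and Selenbp2 (r = 0.86), with 0.68, 0.85 and 0.71 within groups. Nr0b2 was followed by Tnfaip2 (r = 0.82), Dsg2 (r = 0.78) and Chka, a choline kinase (r = 0.76), with 0.73, 0.67 and 0.57 within groups. Within groups the values were thus lower for these genes like Slco1b2 than for those like the other 2.

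Other enzymes of bile acid synthesis and conjugation were read from a list of 16 genes, of which 15 were tested. With CORT under isotype, edgeR called 0, against 1.94% of all genes, and 4 rose by adjusted p alone, against 3.2% of all genes in either direction. DESeq2 called 1 and voom 0, and 8 had an unadjusted p of 0.05 or less. For these last counts the share of all genes is not given here. The list median log2 fold change was 0.52 against 0.00221 for all genes and -0.03 for the hepatocyte markers. The 4 were Akr1c14, a 3α-hydroxysteroid dehydrogenase (0.99, adjusted p = 0.0119), Hsd17b4 (0.71, adjusted p = 0.0344) and Scp2 (0.69, adjusted p = 0.0245), which shorten the side chain in peroxisomes, and Slc27a2, an acyl-CoA synthetase (0.71, adjusted p = 0.0136). αACBP under CORT lowered Akr1c14, the 1 gene called against 0.597% of all genes, by a log2 fold change of -1.13 (SE 0.23, adjusted p = 0.00948), from a median of 251 CPM to 160 CPM, and Akr1d1, the 5β-reductase, by -0.90 (adjusted p = 0.0117). Akr1c14 livers spanned 187 to 528 CPM in Isotype + CORT and 117 to 169 CPM in αACBP + CORT, without overlap. Under αACBP, CORT raised 1 of the 15, Scp2 (0.80, adjusted p = 0.0391), against 0.305% of all genes by adjusted p alone.

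With αACBP under vehicle, 13 of these 15 enzymes were lower, at a median log2 fold change of -0.49 against -0.02 for all genes, and 4 fell by adjusted p alone, against 5.14% of all genes in either direction. Hepatocyte markers had a median of -0.46 in the same livers (5 of 6 lower, ratio of summed means 0.726) and the clock index did not overlap between them, and the part of either in the lower enzymes was not tested. The 4 enzymes were Akr1c6 (-0.86, adjusted p = 0.0289), Akr1d1 (-0.70, adjusted p = 0.0274), Acox2 (-0.69, adjusted p = 0.0206) and Scp2 (-0.65, adjusted p = 0.0281). The 1 gene called, against 1.3% of all genes, was higher: Cyp46a1, a cholesterol 24-hydroxylase best known from brain, rose from 3.55 to 8.45 CPM in Isotype + Vehicle to 7.93 to 27.4 CPM in αACBP + Vehicle (log2 fold change 1.57, SE 0.37, adjusted p = 0.0174).

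Of 14 other genes of bile acid and bile lipid transport tested, 1, Ephx1, was called with CORT under isotype, against 1.94% of all genes. Ephx1 encodes microsomal epoxide hydrolase and had a median of 253 CPM (157 to 270) in Isotype + Vehicle and of 425 CPM (312 to 1102) in Isotype + CORT (log2 fold change 1.21, SE 0.32, adjusted p = 0.0383). Abcb4, the phospholipid exporter of the canaliculus, rose in the same comparison by 0.59 (adjusted p = 0.0475). With αACBP under vehicle, Abcg5, 1 chain of the sterol exporter ABCG5/ABCG8, was the 1 of the 14 called, against 1.3% of all genes (log2 fold change 1.06, SE 0.22, adjusted p = 0.00862). Its livers had 133 to 195 CPM in Isotype + Vehicle and 212 to 461 CPM in αACBP + Vehicle, without overlap. The partner Abcg8 gave 0.55 (adjusted p = 0.0845). The list medians were 0.08 and 0.05 in both comparisons. With αACBP under CORT and with CORT under αACBP, 0 of the 14 passed by edgeR's test, 4 had an unadjusted p of 0.05 or less in each, DESeq2 called 2 and 0, and voom 0 and 1.

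None of the 16 regulators tested was called in these 4 comparisons by edgeR, DESeq2 or voom, and 2 to 7 of them had an unadjusted p of 0.05 or less. Nr1i3, the xenobiotic receptor CAR, rose by adjusted p alone with CORT under isotype (0.95, adjusted p = 0.00155) and with αACBP under vehicle (0.63, adjusted p = 0.0274). Its levels were 546 to 900 CPM in Isotype + Vehicle, 995 to 1648 CPM in Isotype + CORT and 902 to 1172 CPM in αACBP + Vehicle. Nr1h4, which encodes FXR, gave 0.48 with CORT under isotype (adjusted p = 0.146) and 0.28 with αACBP under vehicle (adjusted p = 0.405). Nr5a2, which encodes LRH-1, gave 0.37 (adjusted p = 0.180) and 0.24 (adjusted p = 0.367), and its level was 40.3 to 50.5 CPM in Isotype + Vehicle. Of the 6 genes of bile acid detoxification, Cyp2b10, a CAR target, was the 1 called with CORT under isotype, against 1.94% of all genes, at a log2 fold change of 2.07 (SE 0.55, adjusted p = 0.0467). It lay at 8.52 to 22.5 CPM in Isotype + Vehicle and at 9.88 to 145 CPM in Isotype + CORT, so the groups overlapped. All 6 genes of that list were lower with αACBP under vehicle, at a median of -0.63, with 0 called by edgeR, 1 by DESeq2, 0 by voom and 3 at an unadjusted p of 0.05 or less, beside the median of -0.46 for hepatocyte markers. With αACBP under CORT, 5 of the 6 were lower at a median of -0.91, with 0 called by edgeR, DESeq2 or voom and 4 at that unadjusted p, while hepatocyte markers had a median of -0.12 (4 of 6 lower). Akr1c6, Akr1c14 and Cyp2b10 belong to families of similar genes among which counts could be split, and their values are less certain. For Akr1c14 under CORT, Ephx1, Abcg5 and Cyp2b10, voom with quality weights made no call.

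**Figure D4:**
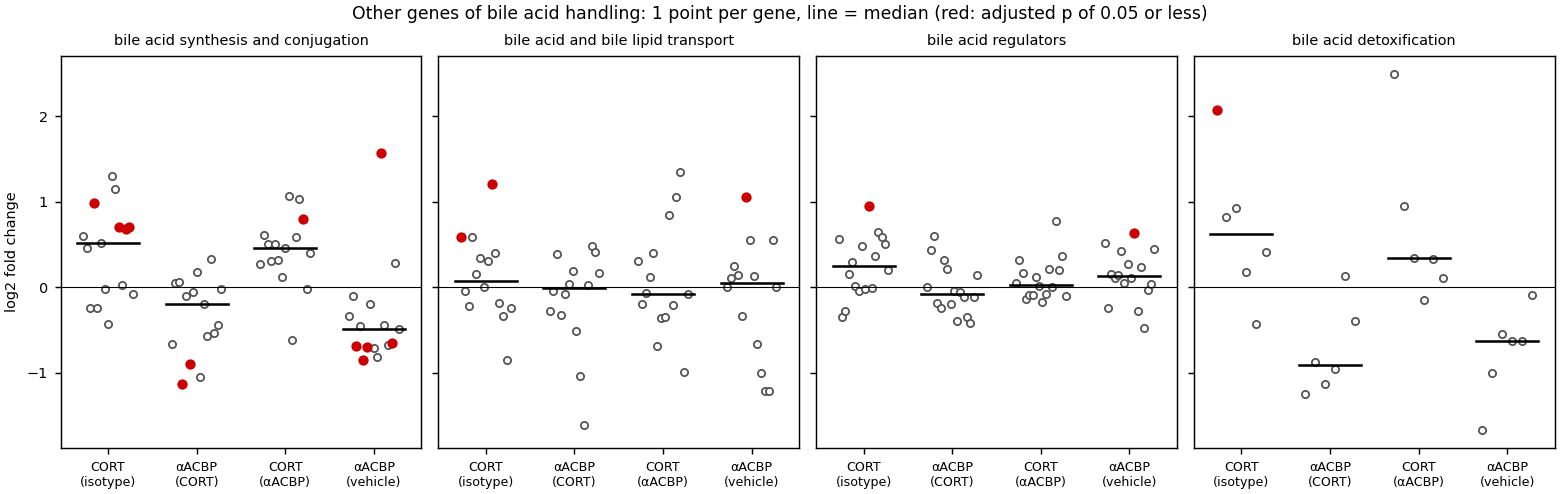
Fitted log2 fold change of each other gene of bile acid handling, 1 point per gene, in 4 lists and 4 comparisons, with a line at the list median and red for an adjusted p of 0.05 or less. Synthesis genes lie mostly above 0 with CORT under isotype (median 0.52) and mostly below 0 with αACBP under vehicle (median -0.49), and the regulators have medians of 0.25 and 0.13 there.

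Marker sums of the cell types were compared between the same livers by exact permutation test. None of the 24 tests passed the adjustment (lowest adjusted p = 0.0952). With CORT under isotype, ratios of means were 0.865 for endothelial markers (adjusted p = 0.360) and 0.979 for stellate cell markers (adjusted p = 0.812). The ratio for cholangiocyte markers was 0.843 (adjusted p = 0.551). The 6 Kupffer cell markers were all lower with CORT under isotype. edgeR called 4 of them, against 1.94% of all genes, DESeq2 5 and voom 1. The 4 were Timd4 (-1.61, adjusted p = 0.0418), Cd5l (-1.32, adjusted p = 0.0302), Vsig4 (-1.10, adjusted p = 0.0197) and Clec4f (-1.01, adjusted p = 0.015). The 6 markers had sums of 263 to 525 CPM in Isotype + Vehicle and 96.9 to 295 CPM in Isotype + CORT (ratio of means 0.451, exact permutation test, p = 0.0159, adjusted p = 0.127). Under CORT the αACBP livers had sums of 363 to 499 CPM, all above those of isotype (ratio 2.46, exact permutation test, p = 0.00794, the smallest that 5 against 5 livers can give, adjusted p = 0.0952). Lymphocyte markers had sums of 8.48 to 18.6 CPM in Isotype + Vehicle and 0.64 to 6.5 CPM in Isotype + CORT (ratio 0.282, exact permutation test, p = 0.00794, adjusted p = 0.0952). Their part in the changes of Slco1b2 and Cyp27a1 was not tested.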

How the data were processed

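Total liver RNA was sequenced as read pairs. The authors aligned them with HISAT2 and counted pairs per gene with HTSeq (union mode, ambiguous pairs kept for all genes they touch), and deposited the raw counts without normalization. The study's methods name GRCm39, while the submitters' processing notes name mm10, and the annotation release and strand setting are not given in the sources used here. Columns were assigned to livers by name, with 0 left over.

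From these counts, edgeR 4.0.16 in R 4.3.3 fitted 1 model of the 4 groups (TMM, filterByExpr, robust quasi-likelihood test, no covariates), with p adjusted over 16071 genes. The biological coefficient of variation common to all genes was 0.481. Whether the livers of a group came from separate cages or batches is not stated, and p-values measure the spread between them. Same-group livers differed by at least 12.4 times counting noise (chi-square per degree of freedom, 40 pairs), and none was counted as a repeat. Marker sums were compared by exact permutation, two-sided. Alternatives were DESeq2 1.42.0, limma 3.58.1 voom, other filters and size factors, fold limits, a replicate block, a clock-gene covariate and each liver left out. Programs were tested on simulated data. Positions and overlaps are from GENCODE M39, and promoters (250 bases before to 50 after the start site) from RefSeq, which were at hand for 7 of the 10 genes. Cyp7a1, Cyp7b1 and Baat have no entry.

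The 10 genes, the lists and the alternatives were chosen with earlier results of these data known. All 10 were named, of the other bile acid and clock lists the called genes (at most 3 per list and comparison) and those that passed by adjusted p alone, and for the 3 genes with the smallest F test p the 3 with the highest r. Naming genes that passed by adjusted p alone, Abcg8, Nr1h4, Nr5a2 and called Kupffer cell markers was decided after their values were seen. Ch25h, Slc51a, Fgf15 and Gpbar1 were listed but not among the genes tested. Of the genes whose levels were most like those of Slco1b2, 1 is not reported here.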

Additional observations from a re-analysis of the deposited data

Results flagged for a closer look

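Cyp8b1 in Isotype + Vehicle replicate 4 stood at 44.3 CPM, apart from the other 4 livers of its group, the nearest of which was at 148 CPM. The gap was 0.773 of the group's range, above Dixon's 95% limit of 0.71 for 5 livers. This was the 1 value so placed among 40 sets of 5 livers (10 genes in 4 groups), and chance places about 1 in 20 such sets past that limit. Without this liver the log2 fold change of Cyp8b1 for αACBP under vehicle was -1.43 in place of -1.21, and with any 1 liver left out it lay between -1.43 and -0.92 and passed no adjustment (adjusted p of 0.121 to 0.381, edgeR's quasi-likelihood test). The cause of the low value was not tested.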

How the results depend on the processing

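Outside the leave-one-out fits, 616 of the fold change values of the 10 genes kept their direction and side of the threshold, 22 changed sign, 9 newly passed and 3 no longer passed. The calls of CORT under isotype rose from 0 to 2 with no fold limit (Slco1b2 and Cyp27a1) and lay between 0 and 1 with single livers left out, the 1 being Nr0b2 without replicate 1 of Isotype + Vehicle (log2 fold change -1.03) or of Isotype + CORT (-1.10). For αACBP under vehicle, calls fell from 2 to 0 with the clock-gene index, rose to 3 by unadjusted p (Cyp8b1 added) and lay between 0 and 2 with single livers left out, 0 without αACBP + Vehicle replicate 1. With the replicate block 1 remained called, Nr0b2. Same-numbered livers are of different mice and had correlations of deviations between -0.44 and 0.39, and 3 of 20 livers correlated best with their own number, so the numbers share only a name. αACBP + CORT against Isotype + Vehicle gave 1 call by unadjusted p. The interaction gave 1 call with DESeq2's Wald test, with voom and with the filter of 10 counts in every liver, 2 by unadjusted p, and 0 to 1 with single livers left out (1, Nr0b2, without Isotype + CORT replicate 1, αACBP + Vehicle replicate 3 or αACBP + CORT replicate 5). The causes were not tested.

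Sign changes concerned values that passed no test. With the clock-gene index they were Abcb11 for CORT under αACBP (-0.14) and αACBP under vehicle (0.039), Cyp7a1 for CORT under αACBP (0.80) and αACBP under CORT (0.21), Slc10a1 for αACBP under vehicle (0.0013) and the interaction (-0.41), and Slco1a1 for CORT under αACBP (-0.77), αACBP under vehicle (0.34) and the interaction (-1.13). With voom they were Abcb11 (0.040) and Cyp7a1 (-0.64) in the interaction, Baat (-0.0034) and Slc10a1 (-0.0037) for αACBP + CORT against Isotype + Vehicle, Cyp7b1 (-0.073) and Slco1a1 (0.12) for αACBP under CORT, and Slco1a1 for CORT under isotype (-0.50, and -0.20 with the replicate block). Cyp8b1 for CORT under αACBP changed sign with DESeq2 (-0.0073), its size factors (-0.0071), the filter of 10 counts (-0.017), voom (-0.19) and the replicate block (-0.040).

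With single livers left out, 651 values kept direction and side, 36 changed sign, 5 newly passed and 8 no longer passed. The ranges of those that changed sign were Abcb11 (-0.15 to 0.13) and Cyp7a1 (-0.83 to 0.74) for the interaction, Abcb11 (-0.049 to 0.23), Baat (-0.050 to 0.12) and Slco1a1 (-0.38 to 0.47) for CORT under isotype, Baat (-0.019 to 0.079), Slc10a1 (-0.11 to 0.20) and Slco1a1 (-0.62 to 0.044) for αACBP + CORT against Isotype + Vehicle, Baat (-0.10 to 0.071), Cyp7a1 (-1.12 to 0.44), Cyp7b1 (-0.045 to 0.29) and Slco1a1 (-0.66 to 0.0087) for αACBP under CORT, and Cyp8b1 (-0.27 to 0.22) for CORT under αACBP.

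Counts over all genes ranged, outside and inside the leave-one-out fits, from 231 to 890 and from 205 to 421 for CORT under isotype, 27 to 520 and 52 to 191 for αACBP under CORT, 0 to 395 and 5 to 153 for CORT under αACBP, 0 to 826 and 87 to 343 for αACBP under vehicle, 10 to 223 and 1 to 23 for αACBP + CORT against Isotype + Vehicle, and 0 to 791 and 6 to 101 for the interaction, where the counts of 0 come from the fit with the clock-gene index.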
